A study of Homo sapiens with 6 samples.

Results

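MAP2K1, AKT1 and PIK3R1 are the kinase pathway genes examined here, 3 of the 89 genes of a cancer pathway array read by quantitative PCR. They were taken by name, as genes that act downstream of growth factor receptors, and not by their measured values. Earlier results of these data were known when they were chosen. MAP2K1 encodes a MEK kinase and AKT1 encodes the kinase AKT. PIK3R1 encodes the regulatory subunit of phosphoinositide 3-kinase (PI3K), which has no kinase activity of its own. None of the 3 genes encodes a RAF kinase.

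RNA was measured in Panc-1 cells, a human pancreatic carcinoma cell line, on 6 plates, 2 for each of 3 conditions. All cells carried the tet-on plasmid and came from a stable G418-selected pool rather than a single clone. Tet-on driver cells carried this plasmid alone and received 1 μg/ml doxycycline for 4 weeks. Tet-on CaSm cells, a puromycin-selected pool derived from the driver pool, also carried inducible full-length human CaSm (LSM1), and were grown for 4 weeks either with 1 μg/ml doxycycline (induced cells) or without it (non-induced cells). Induced and driver cells thus share doxycycline but differ in the CaSm construct and in puromycin selection, whereas induced and non-induced cells share the construct but differ in doxycycline. Driver cells without doxycycline were not analysed here, nor was LSM1 itself.

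Growth factor receptors signal through both branches represented by these genes. In one, RAF kinases phosphorylate MEK, which in turn phosphorylates ERK, and ERK raises the activity of transcription factors such as the products of FOS, ETS2 and MYC. In the other, PI3K is brought to the receptor by its regulatory subunit and makes the membrane lipid that recruits AKT, a kinase that promotes survival in part by phosphorylating BAD. Both branches are regulated mainly by phosphorylation, which transcript levels do not measure.

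The deposited value is the threshold cycle (Ct), the PCR cycle at which a gene's signal crosses a threshold, so that a Ct 1 cycle earlier stands for about 1 log2 unit more template. ΔCt is the Ct minus the mean Ct, within that plate, of the normalizing genes GAPDH, HPRT1 and B2M. That mean lay between 19.7 and 20.3 on the 6 plates, and 79 of the 89 genes had a Ct under 35 on all of them. Each label carries a date-like mark whose meaning is not stated, and plates with the same mark were given the same replicate number, so that number 1 joins an induced and a non-induced plate and number 2 joins a plate of every condition. Whether a condition's plates are separate cultures or repeat measurements is not stated on the labels, so p-values measure only the spread between plates, which may be technical. No ductal or epithelial keratin was on the array to check the cell type, and EPCAM and CDH1 were not on it either. GZMA, a gene of cytotoxic lymphocytes, had a Ct under 35 on 1 of the 6 plates, and the endothelial receptor gene TEK on 2. All 3 kinase pathway genes were detected on every plate. MAP2K1 and AKT1 had mean Ct values of 23.4 and 23.6, the 26th and 27th earliest of the 89 genes, and PIK3R1 a mean Ct of 27.4, the 62nd. Levels were not compared between genes because each assay has its own length and efficiency.

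MAP2K1, the MEK kinase gene, was detected earlier on both induced plates than on any control plate. Its Ct as deposited was 22.7 and 23.1 in induced cells, 23.5 and 23.8 in driver cells, and 23.8 and 23.5 in non-induced cells, in order of replicate. Before any normalization, then, neither induced plate fell among the 4 controls. Ct as deposited also depends on the amount of template on a plate. The mean Ct of the normalizing genes was 19.7 and 20.2 on the induced plates, against 20.1 to 20.3 on the controls. After normalization the ΔCt was 2.99 and 2.89 in induced cells, 3.44 and 3.54 in driver cells, and 3.44 and 3.28 in non-induced cells. The induced plates again did not overlap the controls, and the driver and non-induced plates overlapped each other. The gap in ΔCt between the plates of a condition was 0.100 cycles in induced, 0.103 in driver and 0.153 in non-induced cells, against medians of 0.365, 0.268 and 0.217 over the 76 genes, normalizing genes left out, with a Ct under 35 on all plates.

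Against driver cells, induced cells had a mean ΔCt of MAP2K1 of 2.94 ± 0.07, compared with 3.49 ± 0.07 (SD, 2 plates each). On the log2 scale the difference was 0.55, with a standard error of 0.23 and a 95% confidence interval of 0.04 to 1.06, or 1.47-fold. In limma, p was 0.0367 unadjusted and 0.111 with Benjamini-Hochberg adjustment over the 85 genes tested, so MAP2K1 did not pass the threshold of 0.05. By size of change it was 35th of the 85 genes. Against non-induced cells the log2 fold change was 0.42 (standard error 0.23, 95% confidence interval -0.09 to 0.93, adjusted p = 0.220 from limma), or 1.34-fold. Between the plates numbered 1 this difference was 0.45, and between those numbered 2 it was 0.40. Against all 4 control plates it was 0.49 (standard error 0.20, adjusted p = 0.102). MAP2K1 is also one of the genes the study singled out, a choice made on these same plates, which is not independent evidence of its direction.

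**Figure D1:**
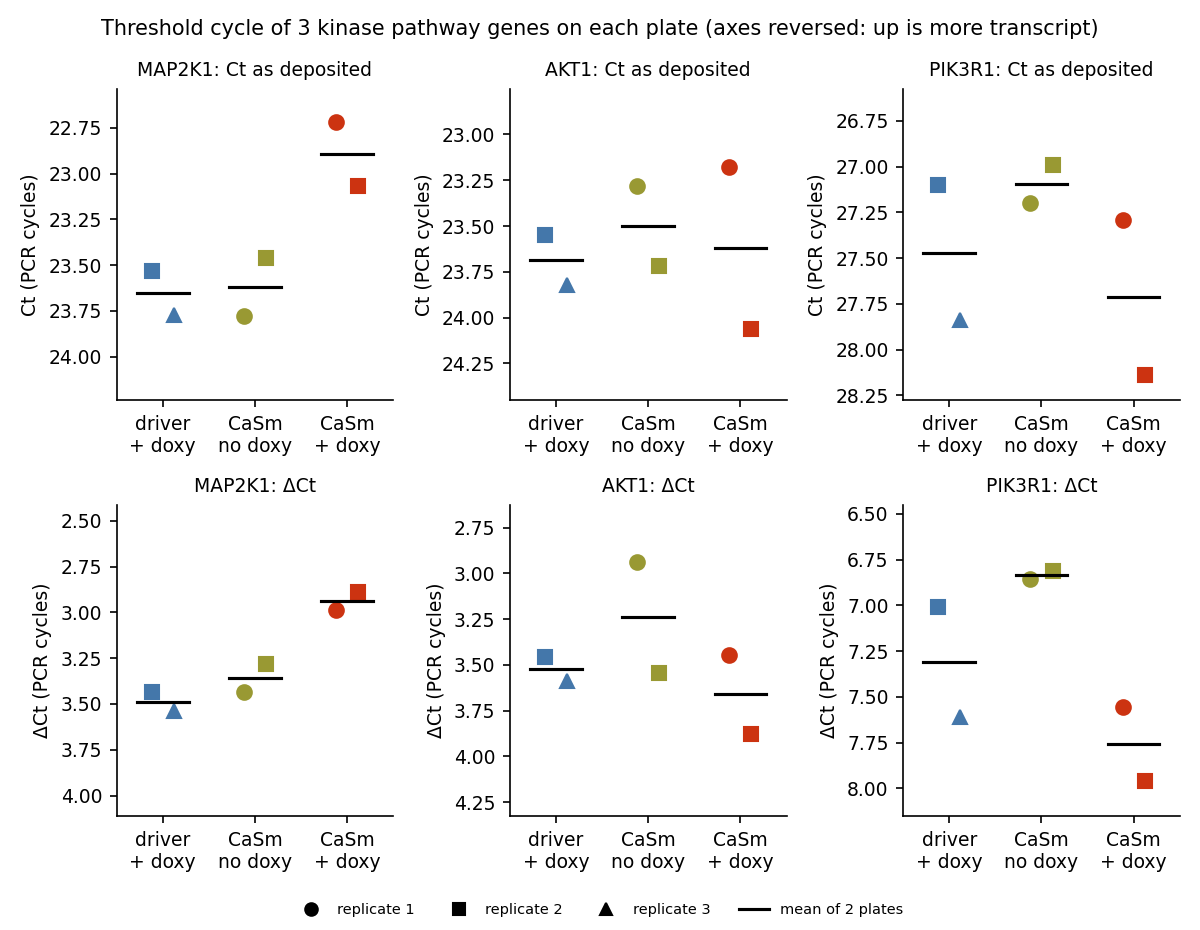
Ct as deposited (upper row) and ΔCt (lower row), both in PCR cycles on reversed axes, of MAP2K1, AKT1 and PIK3R1 on each of the 6 plates, with symbols for the replicate and a line for the mean of the 2 plates of a condition. The induced plates of MAP2K1, with ΔCt of 2.99 and 2.89, lie above all 4 control plates, whereas those of PIK3R1, with 7.56 and 7.96, lie below both non-induced plates.

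PIK3R1, the regulatory subunit of PI3K, was the member with a change that passed the test, and it was lower with induction than without. Its Ct was 27.3 and 28.1 in induced cells, 27.2 and 27.0 in non-induced cells, and 27.1 and 27.8 in driver cells. The induced plates were both later than the non-induced ones, but the driver plates spanned most of that range. The ΔCt was 7.56 and 7.96 in induced cells, 6.86 and 6.81 in non-induced cells, and 7.01 and 7.61 in driver cells. Non-induced cells thus held the highest level and induced cells the lowest. Driver replicate 3 lay between the induced plates, and driver replicate 2 lay closer to the non-induced ones.

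From non-induced to induced cells, PIK3R1 fell by 0.92 on the log2 scale (standard error 0.28, 95% confidence interval -1.53 to -0.31) or 1.89-fold, with an adjusted p of 0.0367 from limma over the 83 genes tested. It was 1 of 15 genes that fell with an adjusted p under 0.05, 18.1% of those tested, and 18th of 83 by size of change. Between the plates numbered 1 the log2 difference was -0.70, and between those numbered 2 it was -1.14. Leaving out any one of 3 of the 4 plates compared ended the call. The adjusted p was 0.162 without non-induced replicate 1, 0.179 without non-induced replicate 2 and 0.157 without induced replicate 2, with log2 fold changes of -0.94, -0.90 and -0.72. Without induced replicate 1 the adjusted p was 0.0210 and the log2 fold change was -1.12.

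Against driver cells, the value for PIK3R1 was -0.45 on the log2 scale (standard error 0.28, 95% confidence interval -1.06 to 0.16, adjusted p = 0.274 from limma). The spread between the driver plates, 0.603 cycles of ΔCt, was the 67th smallest of 76 genes, and a single plate decided the value. Without driver replicate 3 the log2 fold change was -0.75 (adjusted p = 0.205), and without driver replicate 2 it was -0.15 (adjusted p = 0.828). Between the plates numbered 2 it was -0.95. Set against all 4 control plates PIK3R1 was at -0.69 (standard error 0.24, limma adjusted p = 0.0622). With each plate left out in turn, this value ran from -0.89 to -0.49.

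AKT1, the kinase downstream of PI3K, showed no difference beyond the spread between plates. Its Ct was 23.2 and 24.1 in induced cells, 23.6 and 23.8 in driver cells, and 23.3 and 23.7 in non-induced cells. The ΔCt was 3.45 and 3.88 in induced cells, 3.46 and 3.59 in driver cells, and 2.94 and 3.54 in non-induced cells, so that all 3 conditions overlapped. The order of the means was non-induced (3.24 ± 0.43), driver (3.52 ± 0.09) and induced cells (3.66 ± 0.30, SD, n = 2 each), and no neighbours in this order differed beyond their spread. Relative to driver cells the log2 fold change was -0.14 (standard error 0.28, 95% confidence interval -0.75 to 0.48, adjusted p = 0.724 from limma), and without induced replicate 2 it turned to 0.08. Relative to non-induced cells it was -0.42 (95% confidence interval -1.04 to 0.19, adjusted p = 0.288). With 2 plates a condition, changes within these intervals were not excluded.

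**Figure D2:**
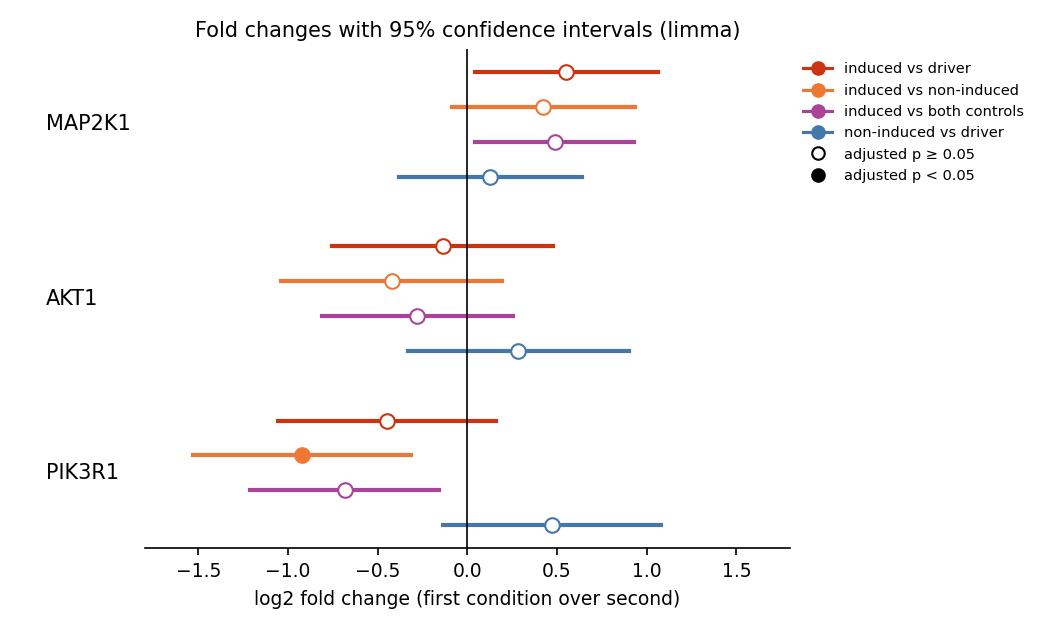
Log2 fold changes (x axis, first condition over second) of the 3 genes with 95% confidence intervals from limma as bars, for induced against driver, non-induced and both control conditions, and for non-induced against driver cells. The filled point, PIK3R1 in induced against non-induced cells at -0.92, is the only one with an adjusted p under 0.05.

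Counted as a group, 0 of the 3 genes had an adjusted p under 0.05 from limma against driver cells, where 23.5% of the 85 genes tested did, and 1 (MAP2K1) had a p under 0.05 before adjustment, where 41.2% did. Their median log2 fold change was -0.14, beside -0.08 over all genes tested. Against non-induced cells, 1 of 3 passed, beside 25.3% of the 83 tested, the same 1 had a p under 0.05 before adjustment, beside 33.7%, and the median was -0.42 beside -0.21. Against both controls, 0 of 3 passed, beside 22.4%, and MAP2K1 and PIK3R1 had a p under 0.05 before adjustment, beside 36.5%. These shares of the array are of the same order as 0 or 1 of 3 genes. Plates that did not overlap were also common across the array. The induced plates of MAP2K1 lay above both driver plates, as they did for 29.4% of genes, above both non-induced plates, as for 21.7%, and above all 4 control plates, as for 17.6%. The induced plates of PIK3R1 lay below both non-induced plates, as for 39.8%.

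The control conditions were compared directly, since the size of an induction effect depends on the control used. Between non-induced and driver cells, none of the 3 genes passed the test in limma, adjusted or not (0 of 3, beside 7.06% of the 85 genes after adjustment and 21.2% before). The log2 fold change was 0.13 for MAP2K1 (95% confidence interval -0.38 to 0.64), 0.28 for AKT1 (-0.33 to 0.90) and 0.47 for PIK3R1 (-0.13 to 1.08). Both PIK3R1 plates of non-induced cells lay above the driver plates, as they did for 40% of genes. All 3 values were positive, as were those of 77.6% of the genes tested, and all 3 turned negative when plates were centred on the median of detected genes, at -0.42, -0.26 and -0.07. That centring moved every gene by -0.54 in this comparison.

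The size of each change depended on the normalizing genes. Relative to the mean of the 3, the ΔCt of B2M was 0.097 ± 0.071 with induction and 0.563 ± 0.094 in the driver, and that of GAPDH -1.78 ± 0.09 and -2.17 ± 0.12 (SD, 2 plates each). HPRT1 was at 1.68 ± 0.16 and 1.61 ± 0.03. Scaling to B2M alone lowered every log2 fold change against driver cells by 0.47, and scaling to GAPDH alone raised it by 0.39. The log2 fold change of MAP2K1 against driver cells was 0.09 with B2M alone, 0.63 with HPRT1 alone (adjusted p = 0.131) and 0.95 with GAPDH alone (adjusted p = 0.0210). Against non-induced cells it was 0.02 with B2M alone (standard error 0.21, adjusted p = 0.926) and 0.76 with GAPDH alone (adjusted p = 0.104). Against both controls it was 0.0525 with B2M alone (limma adjusted p = 0.808), so that relative to B2M no difference in MAP2K1 was detected. With GAPDH alone the 3 genes had the same standard error against driver cells (0.34). The pass of MAP2K1 in that setting thus does not rest on its own spread. For PIK3R1 against non-induced cells, B2M alone gave -1.33 (adjusted p = 0.00159), HPRT1 alone -0.86 (adjusted p = 0.0963) and GAPDH alone -0.59 (adjusted p = 0.211). For AKT1 against driver cells the sign turned, from -0.61 under B2M to 0.26 under GAPDH. Against non-induced cells AKT1 passed the test with B2M alone (-0.83, adjusted p = 0.0192).

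**Figure D3:**
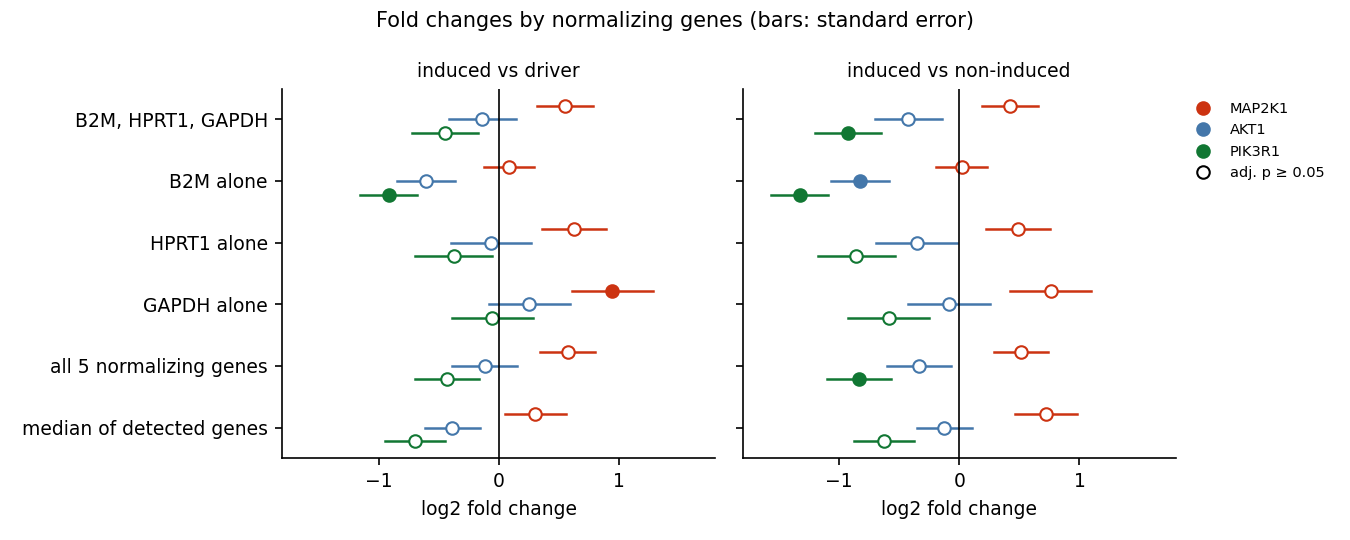
Log2 fold changes (x axis) of the 3 genes in induced against driver cells (left) and against non-induced cells (right), with standard errors as bars, for each choice of normalizing genes (rows). All 3 genes shift by the same amount from row to row, and MAP2K1 against driver cells lies at 0.09 in the B2M row and 0.95 in the GAPDH row.

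Differences between the Ct of 2 genes on the same plate need no normalizing gene. Their absolute size depends on the assays, but their change between conditions measures how the balance of the transcripts differed. MAP2K1 minus PIK3R1 was -4.57 and -5.07 cycles on the induced plates, -3.57 and -4.07 on the driver plates, and -3.42 and -3.53 on the non-induced plates. Both induced plates stood apart from the controls, with more MAP2K1 relative to PIK3R1 by 1.17 cycles (2.25-fold) over the 4 control plates, and by between 0.92 and 1.42 cycles with any plate left out. The exact two-sided permutation test gave p = 0.0667, the smallest that 2 plates against 4 allow, and 0.100 after adjustment over the 3 pairs compared. Such separation was common, since 52.1% of the 2850 pairs among the 76 genes with a Ct under 35 on all plates also had induced plates outside the range of the controls, in either direction. Against driver cells the balance differed 2.00-fold and against non-induced cells 2.54-fold, in a design of 2 plates against 2 that allows no exact p under 0.333.

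MAP2K1 minus AKT1 was -0.46 and -0.99 cycles on the induced plates, -0.02 and -0.05 on the driver plates, and 0.50 and -0.26 on the non-induced plates. The induced plates again lay outside the controls, as for 52.1% of pairs, and differed from them by 0.77 cycles or 1.70-fold on average (exact permutation p = 0.0667, adjusted p = 0.100). The non-induced plates differed from each other by nearly as much as the conditions did. AKT1 minus PIK3R1, the balance within the PI3K branch, was -4.11 and -4.08 on the induced plates, -3.55 and -4.02 on the driver plates, and -3.92 and -3.27 on the non-induced plates. Here too the induced plates lay outside the controls, as for 52.1% of pairs, though driver replicate 3 lay next to them. The mean difference of 0.41 cycles (1.32-fold) gave an exact permutation p of 0.133. Between the control conditions the balance of MAP2K1 to PIK3R1 differed by 0.35 cycles (exact permutation p = 0.333).

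**Figure D4:**
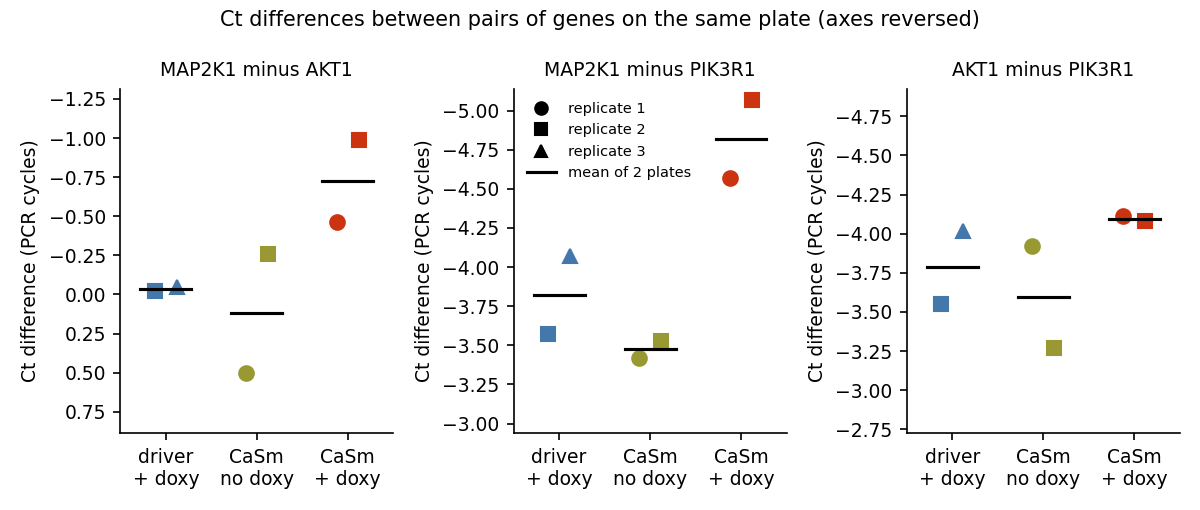
Differences in Ct between pairs of the 3 genes on each plate (y axes, PCR cycles, reversed so that up is more of the first gene), with symbols for the replicate and a line for the mean of the 2 plates of a condition. For MAP2K1 minus PIK3R1 the induced plates, at -4.57 and -5.07 cycles, stand apart from all 4 control plates, which run from -3.42 to -4.07.

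The profile of each gene over the 6 plates was compared with those of the 85 other genes, as the root mean square difference of ΔCt after each gene was centred on its own mean. All profiles share the plates and the normalizing genes, and the likeness is a description. The profiles nearest to MAP2K1 were those of EPDR1 (0.074 cycles), PNN (0.151), which encodes the nuclear and desmosome-associated protein pinin, and TIMP1 (0.164), an inhibitor of matrix metalloproteinases, against a median of 0.438 over all genes. Nearest to AKT1 were BAX (0.066), which promotes apoptosis at mitochondria, ITGB5 (0.081), an integrin subunit, and JUN (0.155). For PIK3R1 they were APAF1 (0.072), which forms the apoptosome, CCNE1 (0.101), which encodes the G1/S cyclin E, and MTA2 (0.135), a subunit of a chromatin remodelling complex. AKT1 and PIK3R1 were 0.310 cycles apart, below the median over all genes from either (0.344 from AKT1 and 0.426 from PIK3R1), and ranked 32nd and 19th of 85 by nearness to each other. MAP2K1 stood farther off, at 0.454 cycles from AKT1 and 0.607 from PIK3R1, which ranked 46th and 64th by nearness to MAP2K1.

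Other genes of these pathways on the array, 18 in all, were followed from the receptors down. They were listed by function, with earlier results of these data known. Of the 18, 2 rose and 2 fell against driver cells with an adjusted p under 0.05, beside 10.6% and 12.9% of the 85 genes tested. By the same threshold 1 rose and 4 fell against non-induced cells, beside 7.23% and 18.1% of the 83. Their median log2 fold change was -0.14 and -0.28, beside -0.08 and -0.21 over all genes tested. Among 4 receptor tyrosine kinases, none passed the test against driver cells, where the lowest limma adjusted p was 0.119. ERBB2, a receptor of the EGF receptor family, fell by 0.99 on the log2 scale against non-induced cells (standard error 0.31, limma adjusted p = 0.0415). FGFR2 was lower in non-induced than in driver cells (-0.87, adjusted p = 0.0451). Of the 6 growth factor ligands, VEGFA alone passed the test. It rose by 1.87 against driver cells and 0.84 against non-induced cells (limma adjusted p = 0.00066 and 0.0367). VEGFA also differed between the controls (1.03, limma adjusted p = 0.0284). The cytoplasmic tyrosine kinase gene SYK, detected late with a mean Ct of 34.7, had log2 fold changes of -0.19 and 0.06. Also late were the ligand genes ANGPT1, IGF1 and ANGPT2 (mean Ct 35.6, 34.8 and 33.6) and the receptor gene TEK (36.9). These means lie near or above the limit of 35, so the test says little about changes in these genes.

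Among the 4 transcription factors that act downstream of MEK and ERK, the genes moved in opposite directions. Relative to the driver, ETS2 fell by 1.72 log2 units (standard error 0.23, limma adjusted p = 0.00066), and it fell by 1.23 against non-induced cells (adjusted p = 0.00461). FOS, an AP-1 subunit, fell by 1.05 against non-induced cells (standard error 0.30, adjusted p = 0.0340) and had a value of -0.85 against driver cells (adjusted p = 0.0640). MYC, a regulator of growth and proliferation, rose 2.83-fold against driver cells (log2 standard error 0.31, limma adjusted p = 0.00488), with a log2 fold change of 0.70 against non-induced cells (adjusted p = 0.134). JUN, the partner of FOS in AP-1, had values of -0.07 and -0.32 and passed neither test.

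Of the 3 genes for AKT substrates, BAD, which promotes apoptosis until AKT phosphorylates it, fell in induced cells. Its log2 fold change was -1.22 against driver cells (standard error 0.27, adjusted p = 0.00728 from limma) and -1.04 against non-induced cells (adjusted p = 0.0238). MDM2 and CDKN1A, which act in the cell cycle and the damage response, did not pass the test in either comparison, with log2 fold changes between -0.37 and 0.20. The calls of these pathway genes depended on the settings to different degrees. Against driver cells, ETS2, VEGFA, BAD and MYC passed in 12, 11, 10 and 9 of 12 alternative settings, fits with a plate left out not counted. Against non-induced cells, ETS2 passed in 11 of 12, BAD, FOS and VEGFA in 7 each, and ERBB2 in 6. Between the controls, FGFR2 passed in 5 of 12 and VEGFA in 6. Fits with a plate left out leave 1 plate in a condition. In them the calls against driver cells held, and that of ETS2 against non-induced cells mostly held. Those of BAD, FOS, VEGFA and ERBB2 against non-induced cells, and those between the controls, were mostly or always lost. With HPRT1 alone and with GAPDH alone, ETS2, BAD, MYC and VEGFA still passed the test against driver cells. Against non-induced cells, ERBB2, FOS and BAD passed with neither (adjusted p of 0.0963, 0.0963 and 0.0912 with HPRT1), VEGFA passed with GAPDH (adjusted p = 0.00533) but not with HPRT1 (adjusted p = 0.0912), and ETS2 passed with both. FGFR2 between the controls passed with neither (adjusted p of 0.112 and 0.125). The 2 comparisons of induced cells share the induced plates, so their values are not independent of each other.

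**Figure D5:**
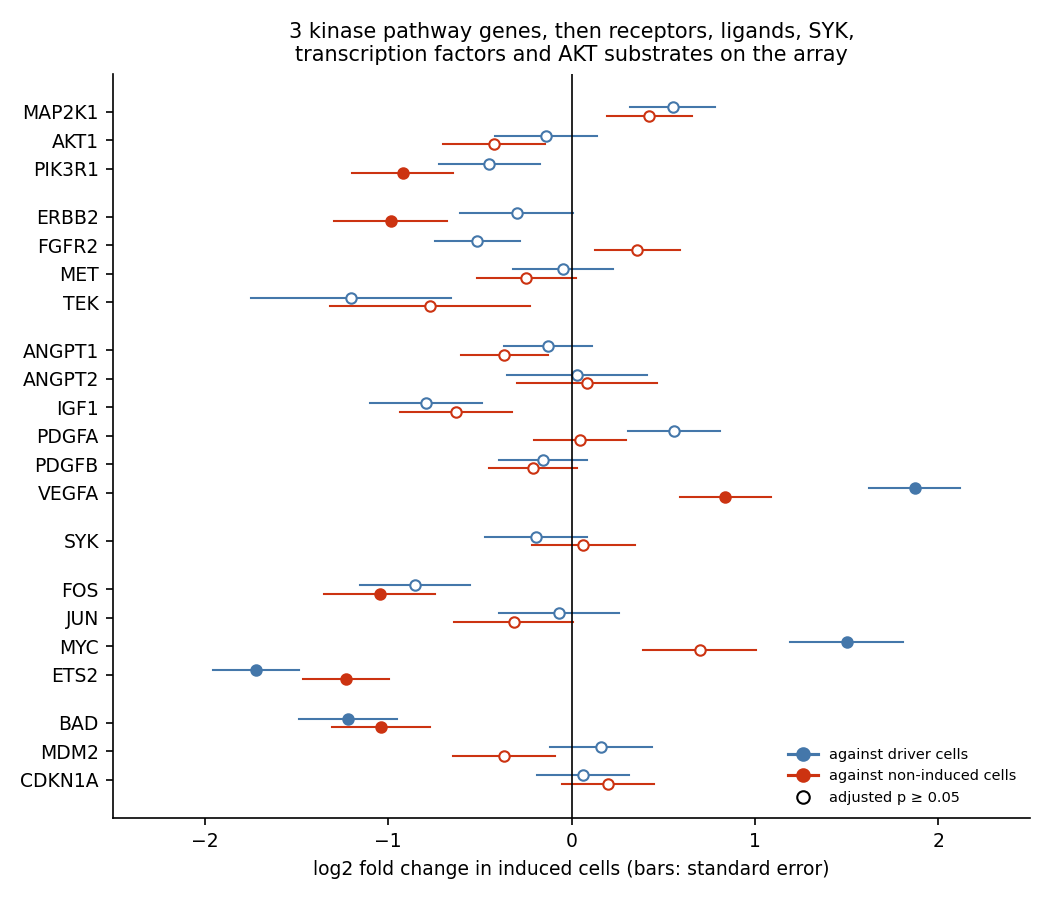
Log2 fold changes in induced cells against driver and against non-induced cells (x axis, bars are standard errors) of the 3 kinase pathway genes and the 18 other pathway genes, with open symbols for an adjusted p of 0.05 or more. ETS2 and BAD lie to the left and VEGFA to the right in both comparisons, while MAP2K1 and AKT1 lie closer to 0 with open symbols.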

How the data were processed

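Per the labels and the study's methods, RNA was reverse transcribed and measured by SYBR Green PCR on a Cancer PathwayFinder array. What the authors deposited is a non-normalized table in PCR cycles, with the threshold cycle (Ct) for each of 89 genes and 6 plates, and how the threshold was set is not given in the sources used here. A second deposited table holds the authors' fold changes relative to driver cells and was not used. From the Ct values, those above 35 were set to 35 and ΔCt was taken against the mean of B2M, HPRT1 and GAPDH, the normalizing genes of the study. Fold changes rest on log2 values of 1 per cycle, which assumes that every assay doubles its product each cycle.

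Negative ΔCt was tested with limma 3.58.1 in R 4.3.3, with a mean for each condition, a moderated spread shared over all 6 plates, and Benjamini-Hochberg adjustment over the genes with a Ct under 35 on a plate compared (85, or 83 for induced against non-induced cells). The script was tested on simulated data. Differences between members on a plate were compared by exact permutation of plates. With 2 plates a condition, their number limits the precision. No 2 plates held identical values. Depth has no counterpart in Ct data. The named genes were the 3 members, the pathway genes on lists by function that passed the test, and the 3 nearest profiles of each member. The members and lists were chosen with earlier results of these data known. Alternatives covered the normalizing genes, the limit on Ct, late genes, the variance model, the mark on the labels as a replicate block, the plates in the fit and each plate left out.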

Additional observations from a re-analysis of the deposited data

How the results depend on the processing

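MAP2K1 in induced against driver cells passed the threshold in 2 of the 13 alternatives with a test, and PIK3R1 in induced against non-induced cells passed in 7 of 13. The 13 include the crossed replicate block described below, which was chosen after seeing the data. It is among the 7 passes of PIK3R1 (limma adjusted p = 0.0391) and not among those of MAP2K1. The counts out of 12 given for the pathway genes do not include it. The causes of the changes below were not tested.

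With B2M alone, PIK3R1 against driver cells was -0.92 (limma adjusted p = 0.0127), AKT1 against non-induced cells -0.83 (limma adjusted p = 0.0192), and against both controls AKT1 was -0.72 (limma adjusted p = 0.0178) and PIK3R1 -1.12 (limma adjusted p = 0.00197). With GAPDH alone, MAP2K1 was 0.95 against driver cells (limma adjusted p = 0.0210) and 0.85 against both controls (limma adjusted p = 0.0170), and AKT1 turned to 0.255 and 0.085 in the same comparisons. PIK3R1 against non-induced cells lost its call with HPRT1 alone (-0.86), GAPDH alone (-0.59), plates centred on the median (-0.63), a Ct limit of 40 (-0.92, limma adjusted p = 0.0979) and no moderation of the variance (-0.92, limma adjusted p = 0.238, or 0.246 with the plates compared only). Between the controls, centring on the median turned MAP2K1 to -0.42, AKT1 to -0.26 and PIK3R1 to -0.07. A trend in the variance brought MAP2K1 past the threshold at 0.55 against driver cells (limma adjusted p = 0.0462) and 0.49 against both controls (limma adjusted p = 0.0456). PIK3R1 against both controls passed with centring on the median (-0.66, limma adjusted p = 0.0425) and among genes with a mean Ct under 30 (-0.69, limma adjusted p = 0.0341). On the plates numbered 2, PIK3R1 was -0.95 against driver cells and -1.05 against both controls, and AKT1 -0.0867 between the controls.

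Plates with the same mark on their labels did not deviate together (Pearson r = -0.16 over 79 genes, induced against non-induced cells). With the mark as a replicate block, PIK3R1 was -0.88 against both controls (limma adjusted p = 0.0181), AKT1 turned to -0.0425 between the controls, PIK3R1 against non-induced cells kept its call (limma adjusted p = 0.0148), and calls between the controls went from 6 to 2. In this fit the 3 genes had the same standard error within a comparison (0.31 against non-induced cells). The p-values of the block fit thus do not rest on the spread of PIK3R1 itself. A crossed replicate block, chosen after seeing the data, gave 9 calls against driver cells and 2 between the controls, with PIK3R1 at -0.89 against both controls (limma adjusted p = 0.0349).

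The number of genes with an adjusted p under 0.05 in limma was 20 against driver cells. It was 44 with B2M alone, 11 for HPRT1 alone, 10 under a Ct limit of 40, 11 with the plates compared only, 5 with no moderation and 2 with both. Against non-induced cells it was 21, and 42, 6 and 8 with the first 3 of these, 4 with no moderation, and 0 with no moderation and the plates compared only (15 at an unadjusted p under 0.05 in limma). Between the controls it was 6, and 2 when HPRT1 normalized alone, 1 under a Ct limit of 40, 1 with no moderation, and 0 with no moderation and the plates compared only (9 at an unadjusted p under 0.05). Against both controls it was 19, and 57 with B2M alone and 4 with no moderation. Of the calls against driver cells, 45.0% were higher, beside 15.9% with B2M alone, 63.6% with HPRT1 alone and 82.8% with GAPDH alone; against non-induced cells the shares were 28.6%, 4.76%, 33.3% and 73.3%, and 59.1% with centring on the median.

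With each plate left out in turn, these counts ran from 15 to 17, 3 to 20, 1 to 7 and 13 to 25. Against driver cells MAP2K1 ran from 0.50 to 0.60, AKT1 from -0.35 to 0.0767 and PIK3R1 from -0.75 to -0.15. Against non-induced cells they ran from 0.35 to 0.50, -0.73 to -0.12 and -1.12 to -0.72. Between the controls they ran from 0.05 to 0.21, -0.02 to 0.59 and 0.17 to 0.78, and against both controls from 0.44 to 0.54, -0.50 to -0.07 and -0.89 to -0.49. Between the controls, the Ct difference of MAP2K1 minus AKT1 ran from -0.23 to 0.54 and that of AKT1 minus PIK3R1 from -0.14 to 0.52.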
